A study of Homo sapiens with 9 samples.

Results

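The genes described here are members of the BCL2 family and death genes controlled by p53, the transcription factor that responds to DNA damage. They were chosen by name, as BBC3, BAX, PMAIP1, FAS, TNFRSF10B, AEN and TP53I3 on the pro-death side and BCL2, BCL2L1 and MCL1 on the pro-survival side. Of these 10 genes, 7 had a row among the 6499 genes of the deposited table, namely 4 pro-death genes (BBC3, BAX, FAS and TP53I3) and all 3 pro-survival genes. PMAIP1, TNFRSF10B and AEN had no row and were not analysed here. The comparison asked whether the RNA of death genes and of survival genes moved apart after doxorubicin.

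RNA was sequenced from WI-38 cells, human lung fibroblasts of a normal diploid line that stops dividing after repeated passage, at population doubling 30. The control group received the carrier DMSO and then medium with DMSO for 48 h. The doxorubicin group received 1 μM doxorubicin, an anthracycline that causes DNA breaks through topoisomerase II, for 12 h and then the same medium for 48 h. Each group had 3 libraries, and the 3 libraries of a further group, given doxorubicin and then oridonin, were not analysed here. All groups came from 1 cell line, nothing states that the libraries of a group came from separate cultures, and p-values may therefore measure a technical spread.

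Proteins of the BCL2 family decide whether the outer mitochondrial membrane stays closed. BH3-only proteins such as PUMA, the product of BBC3, bind the pro-survival proteins BCL2, BCL-XL (from BCL2L1) and MCL1 and so release the pore-forming effector BAX, after which cytochrome c leaves the mitochondria and caspases are activated. BBC3, BAX, FAS and TP53I3 are known p53 target genes, and fibroblasts with lasting DNA damage often stop dividing and stay alive instead of dying.

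The feature that ties 5 of the 7 genes together is the BH3 motif, a leucine followed after 3 residues by glycine or alanine and then aspartate, through which the family members bind each other. The coding bases of this stretch are shown because they are the shared part of genes that moved in different directions. Each line gives 9 codons (27 bases) of the coding strand from a principal transcript of GENCODE release 29 on GRCh38, 5′ to 3′, and capitals mark the codons of the leucine, the glycine or alanine, and the aspartate.
BBC3, chr19:47226582-47226608, minus strand, codons 141 to 149 of 193: CTGcggcggatgGCGGACgacctcaac
BAX, chr19:48955787-48955813, plus strand, codons 63 to 71 of 192: CTCaagcgcatcGGGGACgaactggac
BCL2, chr18:63318352-63318378, minus strand, codons 97 to 105 of 239: CTCcgccaggccGGCGACgacttctcc
BCL2L1, chr20:31721925-31721951, minus strand, codons 90 to 98 of 233: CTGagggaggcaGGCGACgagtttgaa
MCL1, chr1:150578868-150578894, minus strand, codons 213 to 221 of 350: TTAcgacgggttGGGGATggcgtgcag

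BBC3 has alanine before the aspartate and the other 4 genes have glycine. Of the 27 bases, 18 are the same in BBC3 and BAX and 17 in BCL2 and BCL2L1, while BCL2L1 and MCL1 share 11, the lowest count of the 10 pairs. Each stretch lies within a single exon. In the full annotation it is encoded by 2 of the 4 protein-coding transcripts of BBC3, 4 of 7 of BAX, 8 of 9 of BCL2L1 and all 3 of BCL2 and of MCL1. The values below are sums per gene, so transcripts with and without the motif are counted together.

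The authors' table gives a value per gene and library that was read as TPM (a transcript level scaled for transcript length and library total), a unit that keeps no read depth, so the depth behind each value is unknown. The table holds only genes that had passed the authors' own fold and p thresholds on these same 6 libraries, so every gene in it had been selected for a difference and no test below is independent of that selection. On the values read as TPM, some listed genes had folds of means under 1.2, such as FAS (1.08), ZMAT3 (1.02) and EI24 (1.04). The authors' folds were therefore computed on another scale than these values, and that scale is unknown here. A limma model was fitted to log2(TPM + 1) of the 5721 genes that averaged at least 1 TPM, and a gene was called higher or lower at a fold over 1.2 and a Benjamini-Hochberg adjusted p under 0.05. By this rule 71.2% of the genes tested were called in either direction, 22.7% higher and 48.5% lower, and in 80.7% the libraries of the groups did not overlap. Over all genes tested, the log2 fold change had a median of -0.28. Among the 4203 genes that averaged at least 5 TPM the median was 0.05, and every chosen gene that was tested belongs to these. Over all genes tested, the median was -0.02 after quantile normalization and -0.09 after median-ratio scaling of the libraries. The share of higher genes among the called ones moved from 31.9% to 52.95% and 53.7%. Each chosen gene that was tested is therefore also given against the median of all genes, -0.28, and against that of genes averaging at least 5 TPM. Both scalings were computed on the listed genes alone and assume that the bulk of genes does not shift between groups. For genes selected for a difference this assumption may fail, so calls kept, gained or lost under these scalings do not settle which scale is right.

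Compared with the control group, BBC3, BAX and TP53I3 on the pro-death side and BCL2L1 on the pro-survival side were upregulated after doxorubicin, MCL1 was downregulated, and FAS was not called. BBC3 and TP53I3 had the largest folds of the 6 genes tested, both over 2. Of the 6, 5 were called, against 71.2% of all genes tested, a share near the background that says little about these genes. By direction, 4 were higher (background 22.7%) and 1 was lower (background 48.5%), and in 5 of the 6 the libraries did not overlap (background 80.7%). The median log2 fold change of the 6 genes was 0.30, which is 0.58 above the median of all genes tested. That median was 0.05 when only genes averaging at least 5 TPM were taken. BCL2, under 1 TPM on average, was left out of the fit by the filter on low values.

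**Figure D1:**
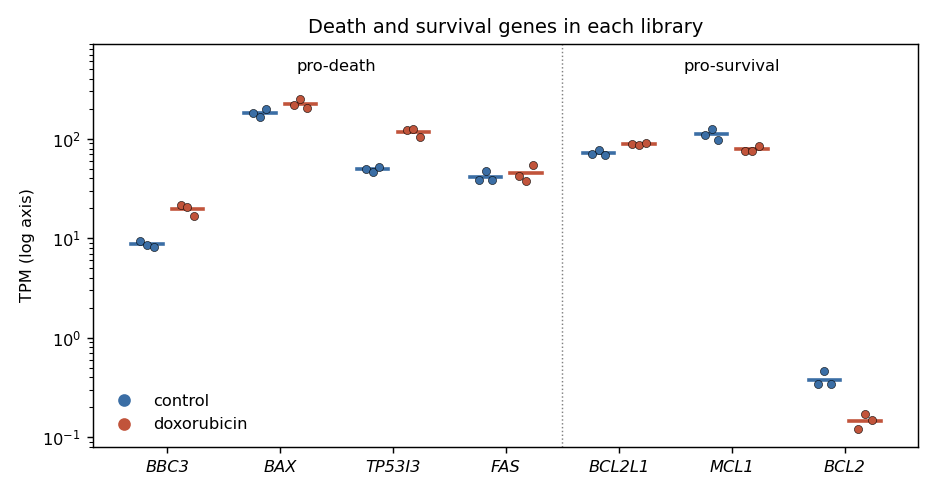
TPM on a log axis of the 7 listed genes in each of the 3 control (blue) and 3 doxorubicin (red) libraries, with points for libraries and horizontal lines for group means. BBC3 and TP53I3 lie far apart between the groups, the libraries of FAS overlap, and BCL2 lies below 1 TPM in all 6 libraries.

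BBC3 (ENSG00000105327) lies on the minus strand of chromosome 19 at 47220822 to 47232766 of GRCh38. It encodes PUMA, a BH3-only protein that binds all main pro-survival members of the family. BBC3 measured 9.46, 8.65 and 8.18 TPM in control replicates 1 to 3, against 21.75, 20.79 and 16.93 TPM in doxorubicin replicates 1 to 3. All 3 doxorubicin libraries lay above all 3 control libraries, and doxorubicin replicate 3 was the lowest of its group. The mean of 19.8 ± 2.55 TPM was 2.26 times the control mean of 8.76 ± 0.647 TPM (SD, n = 3 each), and limma gave a log2 fold change of 1.09 with a 95% interval of 0.82 to 1.35 (SE 0.12, adjusted p = 3.92e-05). Against the median of all genes the log2 change was 1.37, and 98.4% of the genes tested had a lower fold change. Against the median of genes averaging at least 5 TPM the log2 change was 1.04. BBC3 passed 46.0% of the listed genes in level in the control group and 67.1% in the doxorubicin group, so it moved from the middle of the table to its upper part.

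BAX (ENSG00000087088), the effector that forms pores in the outer mitochondrial membrane, lies on the plus strand of the same chromosome at 48954815 to 48961798, 1.72 Mb from BBC3. BAX measured 183.34, 166.77 and 200.75 TPM in replicates 1 to 3 of the control group, against 218.86, 252.57 and 203.70 TPM in those of the doxorubicin group. The groups did not overlap, but control replicate 3 and doxorubicin replicate 3 were nearly level. The means were 184 ± 17.0 and 225 ± 25.0 TPM (SD, n = 3 each), and limma gave a log2 fold change of 0.29 (SE 0.09, adjusted p = 0.0141), or 0.57 against the median of all genes. Against the median of genes averaging at least 5 TPM the log2 change was only 0.24. The call was lost after quantile normalization (log2 fold change 0.23, adjusted p = 0.0635 from limma), where 62.2% of all genes were called. It was also lost without control replicate 2 (0.22, adjusted p = 0.0563 from limma) and without doxorubicin replicate 2 (0.20, adjusted p = 0.0431 from limma), in the latter case because the fold fell below 1.2.

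TP53I3 (ENSG00000115129) encodes a quinone oxidoreductase, also called PIG3, that is linked to reactive oxygen species in p53-dependent death. It lies on the minus strand of chromosome 2 at 24077433 to 24085861. TP53I3 measured 50.18, 46.43 and 52.58 TPM in replicates 1 to 3 of the control group, against 123.49, 126.41 and 104.13 TPM in those of the doxorubicin group. Every doxorubicin library was above every control library by a wide margin. The mean of 118 ± 12.1 TPM was 2.37 times the control mean of 49.7 ± 3.10 TPM (SD, n = 3 each), and limma gave a log2 fold change of 1.23 (SE 0.09, adjusted p = 1.58e-06), or 1.51 against the median of all genes. Against the median of genes averaging at least 5 TPM the log2 change was 1.18. Of the genes tested, 98.9% had a lower fold change. TP53I3 and BBC3 were called higher under every scaling, filter and omission of a library that was run, with log2 fold changes of 1.18 to 1.45 for TP53I3 and 1.02 to 1.34 for BBC3.

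FAS (ENSG00000026103) encodes the cell surface receptor for FAS ligand, which starts the extrinsic death pathway through caspase 8. FAS measured 38.66, 47.45 and 38.77 TPM in replicates 1 to 3 of the control group, against 42.57, 37.63 and 54.74 TPM in those of the doxorubicin group. The groups overlapped, with the lowest of all 6 values in doxorubicin replicate 2 and the highest in doxorubicin replicate 3. The means were 41.6 ± 5.04 and 45.0 ± 8.81 TPM (SD, n = 3 each), and limma gave a log2 fold change of 0.10 with a 95% interval of -0.20 to 0.40 (adjusted p = 0.497), while an exact two-sided permutation test gave p = 0.7. Against the median of all genes the log2 change was 0.38, and against that of genes averaging at least 5 TPM it was 0.05. FAS had a row although the fold of its means was 1.08 here, so it had passed the authors' selection on another scale. After median-ratio scaling, under which 81.3% of all genes were called, FAS was called higher (log2 fold change 0.32, adjusted p = 0.0219 from limma), and without doxorubicin replicate 3 the sign turned (-0.05). FAS, on the plus strand of chromosome 10 at 88990582 to 89015785, overlaps ACTA2 (smooth muscle actin) on the opposite strand. ACTA2 read 394 to 430 TPM in the control libraries and 182 to 210 TPM in the doxorubicin libraries, and since no source used here says that counting used strand, reads of the overlap cannot be told apart. By the annotation, BBC3, TP53I3, BCL2, BCL2L1 and MCL1 also overlap other genes, such as FAM228B on the strand opposite TP53I3, and BAX overlaps none.

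BCL2L1 (ENSG00000171552) encodes BCL-XL, a pro-survival protein of the mitochondrial membrane, and lies on the minus strand of chromosome 20 at 31664452 to 31723989. BCL2L1 measured 69.78, 77.59 and 68.38 TPM in replicates 1 to 3 of the control group, against 88.43, 85.89 and 91.91 TPM in those of the doxorubicin group. The groups did not overlap. The mean was 71.9 ± 4.96 TPM in the control group and 88.7 ± 3.02 TPM in the doxorubicin group (SD, n = 3 each), and the log2 fold change by limma was 0.30 (SE 0.07, adjusted p = 0.00341), or 0.58 against the median of all genes. Against the median of genes averaging at least 5 TPM the log2 change was only 0.26. The log2 fold change of this pro-survival gene stood beside 0.29 for BAX, and the gene was called higher under every scaling, filter and omission of a library, with log2 fold changes of 0.27 to 0.53.

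MCL1 (ENSG00000143384) encodes a short-lived pro-survival protein that restrains BAK and BAX, and lies on the minus strand of chromosome 1 at 150574551 to 150579738. MCL1 measured 109.78, 125.74 and 97.55 TPM in replicates 1 to 3 of the control group, against 76.11, 74.82 and 84.62 TPM in those of the doxorubicin group. All doxorubicin libraries lay below all control libraries. Means of 111 ± 14.1 and 78.5 ± 5.32 TPM (SD, n = 3 each) gave a log2 fold change by limma of -0.49 (SE 0.09, adjusted p = 0.00110). Since the median of all genes was itself below 0, the change against that median was -0.21. Against the median of genes averaging at least 5 TPM the change was larger, at -0.53. Against the median of all genes it was -0.52 after quantile normalization and -0.18 after median-ratio scaling. After median-ratio scaling MCL1 was not called (log2 fold change -0.26, a fold just under 1.2, adjusted p = 0.0161 from limma).

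BCL2 (ENSG00000171791), the founding pro-survival gene of the family, spans 196783 bp on the minus strand of chromosome 18, at 63123346 to 63320128. BCL2 measured 0.34, 0.46 and 0.34 TPM in replicates 1 to 3 of the control group, against 0.12, 0.17 and 0.15 TPM in those of the doxorubicin group. The libraries did not overlap, and the means were 0.38 ± 0.0693 and 0.147 ± 0.0252 TPM (SD, n = 3 each). Only 7.40% of the listed genes were lower in the control group and 3.72% in the doxorubicin group. In a fit with no filter on low values, BCL2 was called lower together with MCL1 (2 of 7 genes, background 45.7%), by -0.27 on the log2(TPM + 1) scale (limma adjusted p = 0.0144), a scale on which the change of so low a gene is understated.

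**Figure D2:**
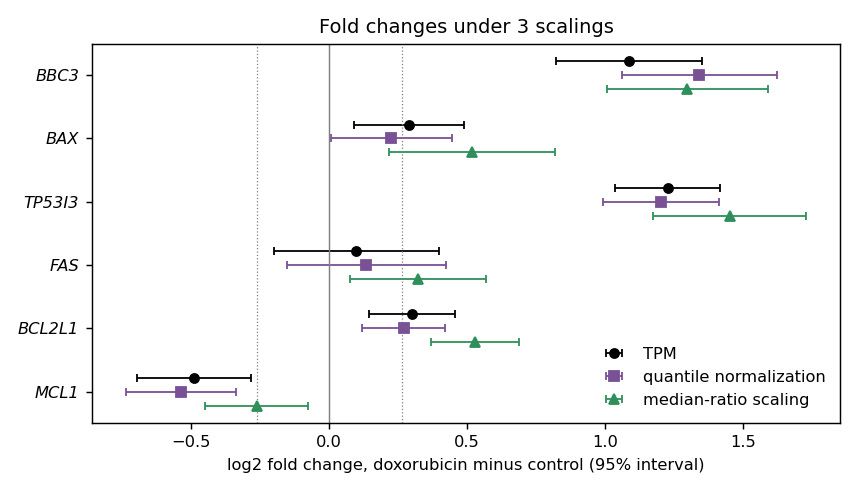
Log2 fold change, doxorubicin minus control, of the 6 genes tested, from limma fits to TPM (circles), quantile normalized values (squares) and median-ratio scaled values (triangles), with 95% intervals and dotted lines at a fold of 1.2 either way. BBC3 and TP53I3 stay near or above 1 under all 3 scalings, BAX lies below the line after quantile normalization (0.23), and MCL1 lies on it after median-ratio scaling.

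With 3 libraries a group, an exact permutation test (two-sided) cannot go below p = 0.1, and this value was obtained for each of the 6 genes other than FAS. Within a group, the same library was often the lowest for some genes and the highest for others. Doxorubicin replicate 3 had the lowest value of its group for BBC3, BAX and TP53I3 and the highest for FAS, BCL2L1 and MCL1. In the control group, replicate 2 had the highest value for FAS, BCL2, BCL2L1 and MCL1 and the lowest for BAX and TP53I3.

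Ratios between genes of the same library do not change when a library is multiplied by 1 factor, as in median-ratio scaling, although quantile normalization can change them, and they set each death gene directly against each survival gene. Of the 8 ratios of a pro-death gene to BCL2L1 or MCL1, 6 were higher in every doxorubicin library than in every control library, 2 overlapped and none was lower in every library. No share over all pairs of genes was computed, and 80.7% of single genes tested did not overlap. The ratios are not separate results, since those to MCL1 share a denominator that itself fell. FAS per MCL1 separated the groups although FAS itself overlapped. BBC3 per MCL1 was 0.0862, 0.0688 and 0.0839 in the control libraries and 0.286, 0.278 and 0.200 in the doxorubicin libraries, a mean ratio 3.20 times that of the control group. BAX per MCL1 rose from 1.68 ± 0.366 to 2.89 ± 0.484 and FAS per MCL1 from 0.376 ± 0.0227 to 0.570 ± 0.0725 (SD, n = 3 each), both without overlap. TP53I3 per MCL1 had the largest change of the 8, from 0.455 ± 0.0849 to 1.51 ± 0.248 (SD, n = 3 each).

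Against BCL2L1 the picture was narrower. BBC3 per BCL2L1 went from 0.122 ± 0.0123 to 0.224 ± 0.0346 and TP53I3 per BCL2L1 from 0.695 ± 0.0877 to 1.33 ± 0.178 (SD, n = 3 each), in both cases without overlap. BAX per BCL2L1 was 2.57 ± 0.396 and 2.54 ± 0.367 and FAS per BCL2L1 was 0.578 ± 0.0302 and 0.505 ± 0.0813 (SD, n = 3 each), and both overlapped. BBC3 per BAX, that is, a BH3-only gene per effector gene, went from 0.0481 ± 0.00634 to 0.0883 ± 0.00963 without overlap (SD, n = 3 each).

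**Figure D3:**
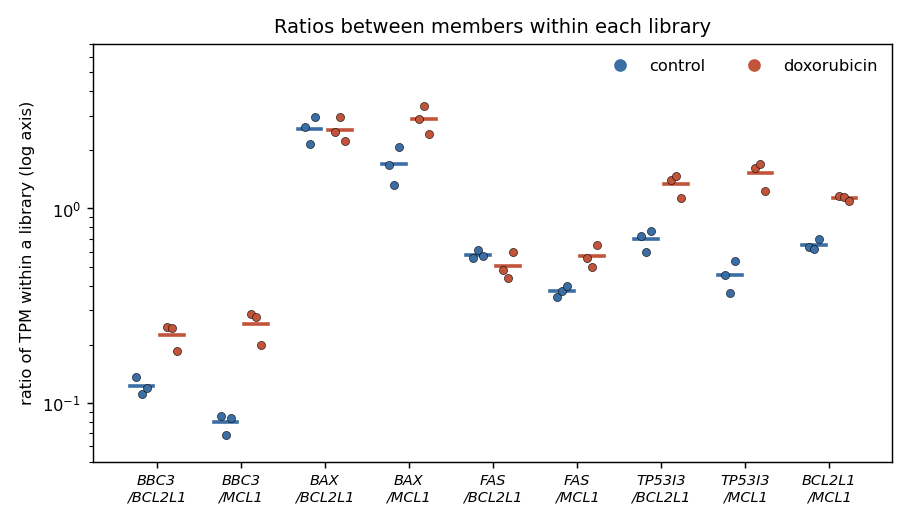
Ratio of the TPM of 2 genes within each library, on a log axis, for the 8 pairs of a pro-death gene over BCL2L1 or MCL1 and for BCL2L1 over MCL1, with points for the 3 control (blue) and 3 doxorubicin (red) libraries and lines for group means. The ratios to MCL1 separate the groups in every pair, while BAX and FAS over BCL2L1 overlap between 2.22 and 2.94 and between 0.554 and 0.596.

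The 3 pro-survival genes exchanged places more than they changed in sum. Their summed level was 180, 204 and 166 TPM in controls and 165, 161 and 177 TPM with doxorubicin, and the groups overlap (183 ± 19.0 and 167 ± 8.25 TPM; SD, n = 3 each). MCL1 made up 60.5 ± 1.59% of this sum in the control group and 46.9 ± 0.895% in the doxorubicin group, and BCL2L1 went from 39.3 ± 1.60% to 53.04 ± 0.895% (SD, n = 3 each). BCL2L1 per MCL1 was 0.636, 0.617 and 0.701 in the control libraries and 1.16, 1.15 and 1.09 in the doxorubicin libraries, so BCL2L1 replaced MCL1 as the more abundant transcript in each doxorubicin library. BCL2 held 0.206% of the sum in the control group and 0.0878% in the doxorubicin group.

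**Figure D4:**
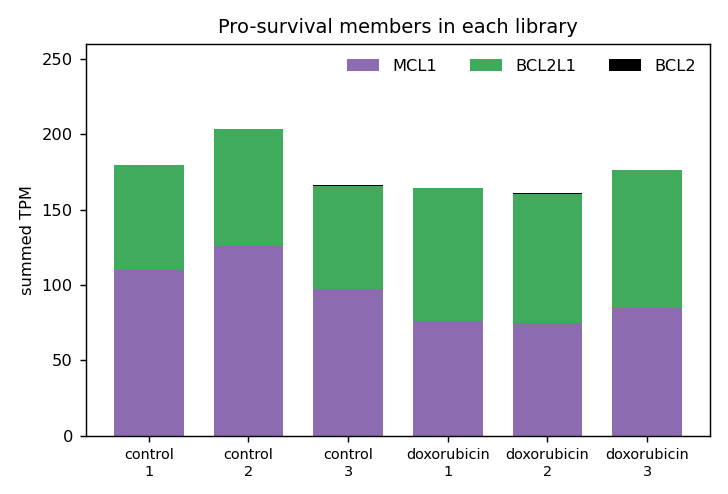
Summed TPM of the 3 pro-survival genes in each library, with MCL1 (purple), BCL2L1 (green) and BCL2 (black, hardly visible) stacked from 0. The sums range from 161 to 204 TPM and overlap between the groups, while the part held by MCL1 is above that of BCL2L1 in every control library and below it in every doxorubicin library.

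The 4 pro-death genes summed to 284 ± 15.6 TPM in the control group and 408 ± 28.97 TPM in the doxorubicin group (SD, n = 3 each). The sum of BBC3 and BAX per pro-survival sum was 1.07, 0.861 and 1.26 in the control libraries and 1.46, 1.70 and 1.25 in the doxorubicin libraries, and here doxorubicin replicate 3 lay just below control replicate 3. As a mean of log2(TPM + 1) over the 4 pro-death genes minus that over the 3 pro-survival genes, the balance was 1.02, 0.85 and 1.09 in the control libraries and 1.87, 1.87 and 1.70 in the doxorubicin libraries. The difference of the group means was 0.83, and it was 0.77 when BCL2 was left out of the pro-survival mean, an alternative chosen after the data were seen. No p is given for this balance, because its genes were chosen with results of these data known. The pro-death side also lacks PMAIP1, TNFRSF10B and AEN, which had no row, while all 3 pro-survival genes are in. A row required passing the authors' thresholds on these same libraries. The pro-death sum and the balance therefore cover only genes selected for a difference, and their size cannot stand for all pro-death genes.

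By level per length, the order in the control group was BAX, MCL1, BCL2L1, TP53I3, FAS, BBC3 and BCL2, and only the neighbours TP53I3 and FAS overlapped between libraries. In the doxorubicin group the order was BAX, TP53I3, BCL2L1, MCL1, FAS, BBC3 and BCL2, and no neighbours overlapped. The BH3-only gene BBC3 thus stayed the lowest pro-death transcript in both groups, with BAX at 225 TPM and BBC3 at 19.8 TPM after doxorubicin.

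The promoters of BBC3 and BAX are shown because these BCL2 family members lie on the same chromosome and both were called higher, by very different amounts. RefSeq windows on GRCh38.p14, from 250 bases before to 50 after a transcription start, were found for 6 of the 7 genes, all but MCL1. The consensus decamer of p53, searched on both strands, had no match in the windows of BBC3, BAX, TP53I3, BCL2 and BCL2L1 and 1 match in 1 of the 3 FAS windows, and 6.63% of all 35116 windows hold it. The letters CACGTG, the E-box that reads the same on both strands and was picked after the windows had been looked at, occur 4 times in BAX, at 138, 93, 45 and 14 bases before the start, and 1 time in BBC3, 232 bases before it. Of all windows 7.26% hold CACGTG, and 5 of them hold it 4 or more times. Capitals mark CACGTG in both sequences, each given 5′ to 3′ on the strand of the gene.
BBC3, chr19:47232618-47232917, minus strand: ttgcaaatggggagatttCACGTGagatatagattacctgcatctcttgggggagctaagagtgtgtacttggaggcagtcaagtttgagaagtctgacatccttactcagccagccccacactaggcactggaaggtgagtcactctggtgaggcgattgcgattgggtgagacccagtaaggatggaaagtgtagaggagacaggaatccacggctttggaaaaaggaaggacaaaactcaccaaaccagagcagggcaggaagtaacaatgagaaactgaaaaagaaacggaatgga
BAX, chr19:48954625-48954924, plus strand: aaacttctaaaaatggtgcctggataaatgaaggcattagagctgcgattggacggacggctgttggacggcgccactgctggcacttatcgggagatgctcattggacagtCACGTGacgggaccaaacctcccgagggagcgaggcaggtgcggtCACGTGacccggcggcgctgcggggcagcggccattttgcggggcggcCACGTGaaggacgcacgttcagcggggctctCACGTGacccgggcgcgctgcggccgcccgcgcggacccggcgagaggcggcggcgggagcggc

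The BAX window is 67.3% G and C and the BBC3 window 48.0%. A match of letters is a description of these windows and says nothing of binding, and sites outside them were not searched.

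A list of 70 other genes of the same pathways was read alongside, of which 28 had a row and all 28 were tested. Of these, 10 were called higher (background 22.7%), 12 lower (background 48.5%) and 6 were not called, with a median log2 fold change of 0.08, which is 0.37 above the median of all genes tested. The median of genes averaging at least 5 TPM was 0.05. After quantile normalization the counts were 11 higher (background 32.9%) and 8 lower (background 29.2%), and after median-ratio scaling 15 higher (background 43.7%) and 11 lower (background 37.6%). The shares called lower lay near or below those of all genes tested under each scaling.

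Among BH3-only genes, which act like BBC3, 2 of 6 were listed and both were called higher. BMF, which is held at the cytoskeleton until released, went from 0.747 ± 0.169 to 1.47 ± 0.0874 TPM (SD, n = 3 each; log2 fold change 0.51, limma adjusted p = 0.00591), and the other gene was BAD, which binds BCL-XL. After quantile normalization 1 of the 2 was called. The effectors BAK1 and BOK and the pro-survival genes BCL2A1, BCL2L2 and BCL2L10 had no row. Of 9 other relatives, 2 were listed and both were called lower under all 3 scalings, with the largest fall in BCL2L12 from 25.4 ± 2.30 to 14.7 ± 0.236 TPM (SD, n = 3 each; log2 fold change -0.75, adjusted p = 0.000103 from limma).

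Around FAS, 4 of 15 genes of the death receptor pathway were listed, with 2 called higher, 1 lower and 1 not called. TNFRSF10C, a decoy receptor that binds the ligand TRAIL without passing on a death signal, was 0.54, 0.68 and 0.89 TPM in controls against 3.99, 3.78 and 4.99 TPM with doxorubicin (log2 fold change 1.62, limma adjusted p = 7.99e-06). The groups lay far apart, and this was the largest rise of the 28 genes. Since the scale understates changes of genes near 1 TPM, the log2 fold changes with a pseudocount of 0.1 were 2.45 for TNFRSF10C, 0.91 for BMF and -5.48 for BIRC5. CASP8, the initiator caspase that FAS recruits, fell from 10.1 ± 0.637 to 5.70 ± 0.693 TPM (SD, n = 3 each; log2 fold change -0.73, adjusted p = 0.000479 from limma).

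Downstream of the mitochondria, 5 of 10 genes of mitochondrial release and the apoptosome were listed, with 2 called higher, 2 lower and 1 not called. ENDOG, a mitochondrial nuclease, changed by 0.42 on the log2 scale (limma adjusted p = 0.0106), and AIFM2, a flavoprotein related to the apoptosis-inducing factor, by -0.66 (limma adjusted p = 0.000752). The 4 caspases and caspase substrates of the list that had a row (CASP2, CASP6, DFFB and PARP1, of 6 named) were called lower (background 48.5%), with a median log2 fold change of -0.58, which is -0.30 against the median of all genes. Of these 4, 2 were called lower after quantile normalization (background 29.2%) and 3 after median-ratio scaling (background 37.6%). PARP1, a DNA repair enzyme that caspases cleave, was 38.8 ± 1.52 TPM in the control group and 19.7 ± 2.26 TPM in the doxorubicin group (SD, n = 3 each; log2 fold change -0.95, adjusted p = 2.48e-05 from limma).

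All 3 listed inhibitors of apoptosis proteins (BIRC3, BIRC5 and BIRC6, of 6 named) were called lower (background 48.5%), and 2 of the 3 after quantile normalization (background 29.2%). BIRC5, which encodes survivin and is also needed for chromosome segregation in dividing cells, was 21.90, 23.73 and 22.74 TPM in controls against 0.26, 0.74 and 0.35 TPM with doxorubicin. This was the largest change among the 28 genes, with -4.05 on the log2 scale (limma adjusted p = 1.15e-08). Of the other p53 death genes, 8 of 13 were listed, and 4 of these were called higher (PIDD1, TP53INP1, PPP1R13L and PHLDA3), 4 were not called and none was lower. All 8 lay above the median fold change of all genes tested under all 3 scalings, and the largest rise was that of PPP1R13L, an inhibitor of p53 activity, from 5.00 ± 1.04 to 8.62 ± 2.27 TPM (SD, n = 3 each; log2 fold change 0.67, adjusted p = 0.00990 from limma). Since the class holds such an inhibitor, its counts are not counts of pro-death genes only.

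**Figure D5:**
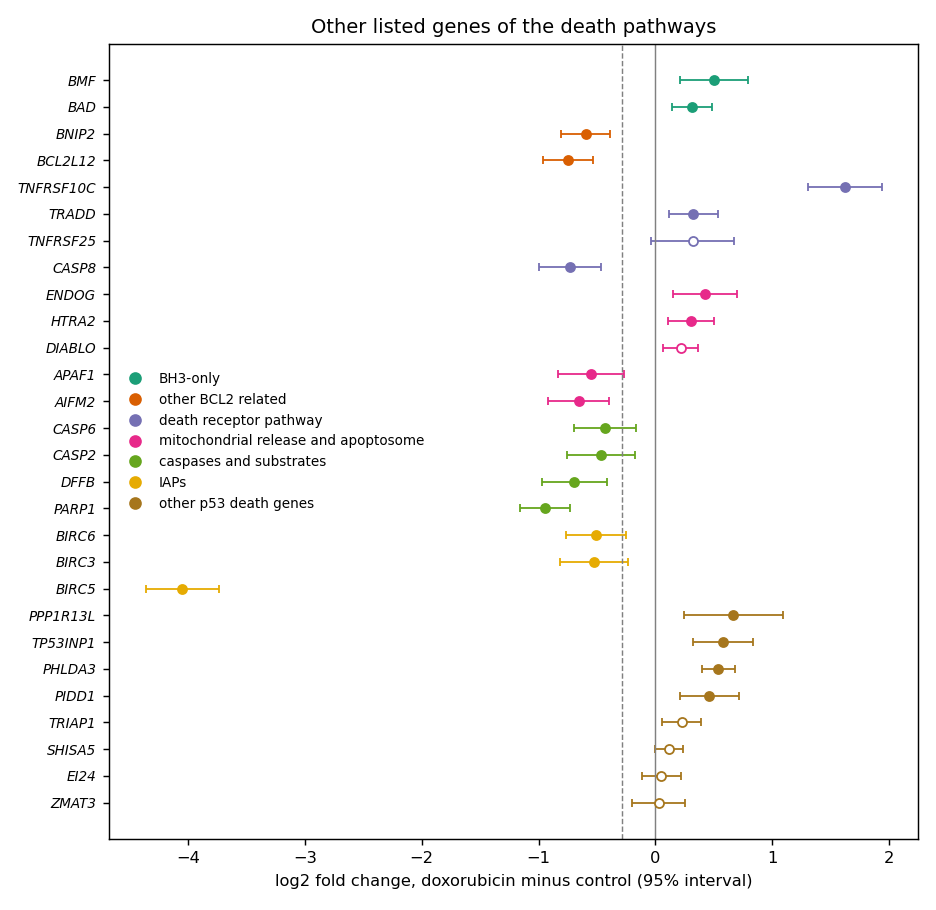
Log2 fold change, doxorubicin minus control, with 95% intervals from limma for the 28 other listed genes of the death pathways, coloured by class, with filled points for called genes, open points for genes not called, a solid line at 0 and a dashed line at the median of all genes tested (-0.28). The 4 caspases and substrates and the 3 inhibitors of apoptosis lie left of the dashed line, and all 8 other p53 death genes lie right of it.

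The genes whose pattern over the 6 libraries was nearest to that of BBC3, by the root mean square difference of log2(TPM + 1) after the control mean was taken off, were sought among all 5721 genes tested. They were ENSG00000260912 (AL158206.1 in GENCODE) at 0.0471, CCK at 0.0921, CDKN1A at 0.0932, DDB2 at 0.103 and PLTP at 0.104. ENSG00000260912 measured 0.68, 0.66 and 0.49 TPM in controls against 2.62, 2.77 and 1.93 TPM with doxorubicin. CCK measured 1.5, 1.09 and 1.46 TPM in controls against 4.54, 4.09 and 3.43 TPM with doxorubicin. Both rose by a larger fold than BBC3, and on this scale changes of genes near 1 TPM are understated. The measure is a description over 6 libraries that share 1 comparison, and it puts genes of different level side by side, from 0.49 TPM for ENSG00000260912 in control replicate 3 to 1502 TPM for CDKN1A in doxorubicin replicate 1.

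Markers of the labelled cell type and of other cells were read where they had a row. A row required passing the authors' thresholds, so a marker without a row may be expressed or not. The rows therefore cannot test cell identity or the presence of other cells. Of 11 fibroblast markers 6 had a row, with summed levels of 10315 to 10640 TPM in the control libraries and 9424 to 11501 TPM in the doxorubicin libraries. The near-level sum hid opposite changes, since FN1 was called higher (log2 fold change 0.45) and COL1A1, COL1A2, COL3A1, PDGFRA and PDGFRB were called lower (-1.48 to -0.38), while COL1A1, COL1A2 and FN1 were at 1734 TPM or more in every library. Of 12 markers of leukocytes, endothelium, epithelium and muscle, PTPRC and MYH11 had a row, and together they came to 0.09 to 0.15 TPM in the control libraries and 0.26 to 1.07 TPM in the doxorubicin libraries. Libraries of the same group correlated at Pearson's r of 0.992 to 0.995 and libraries of different groups at 0.935 to 0.958, taken across genes, which do not count as replicates. All listed genes had been selected for differing between these groups, and that selection by itself lowers r between groups. In bulk RNA, fewer cells and less RNA per cell cannot be told apart, and the share of cells that died or detached was not measured here.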

How the data were processed

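Total RNA of WI-38 cells was sequenced by the authors from both ends. The authors deposited a table of 1 value per gene and library for the control and doxorubicin groups, in a unit it does not name and which was read as TPM, because the submitters' processing notes name RSEM and the listed genes sum to 54.3 to 60.0% of the total that TPM fixes for a library. Were the deposited values FPKM, each library would differ by 1 common factor, which leaves ratios within a library as they are. The notes also name HISAT2 and StringTie, with no role or version, and a mouse build, GRCm38, although the identifiers are human. The table also holds the authors' group means, fold changes and p-values, which were not used, and only genes past their thresholds.

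The members and lists were chosen with earlier results of these data known. Values were fitted as log2(TPM + 1) in R 4.3.3 by limma 3.58.1 (a mean per group, robust eBayes with a trend) for the 5721 of 6499 genes that averaged at least 1 TPM, and p-values were adjusted by Benjamini-Hochberg over these. The call rule takes the fold threshold of the paper with an adjusted p. On simulated data made from these 5721 genes the fit was tested before use. Some genes of the pathway list are not reported here. Named genes are all members with a row and, in each class, the called gene with the largest rise and the largest fall without overlap. Same-numbered libraries did not deviate together (r = -0.06, -0.19 and -0.23), so the numbers were not taken as pairs. Positions and coding bases were looked up by Ensembl identifier in GENCODE release 29 (GRCh38), and promoters from RefSeq on GRCh38.p14. Alternatives were a pseudocount of 0.1, no filter or a mean of at least 5, quantile normalization, median-ratio scaling, a replicate block, a fold over 2, an unadjusted p, and each library left out. Tables were handled with pandas 2.3.3 and SciPy 1.17.1 under Python 3.11.15.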

Additional observations from a re-analysis of the deposited data

How the results depend on the processing

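All values rest on genes the authors had already selected on the same 6 libraries, on an inferred unit and on 3 libraries a group with unknown depth, so changes of low genes such as BCL2 are the least certain. BBC3, TP53I3 and BCL2L1 were called higher under each of the 12 other fits run for single genes. BAX was not called after quantile normalization or without replicate 2 of either group, FAS was called only after median-ratio scaling and turned to -0.049 without doxorubicin replicate 3, and MCL1 was not called after median-ratio scaling. Log2 fold changes with 1 library left out ranged from 1.02 to 1.19 for BBC3, 0.20 to 0.36 for BAX, -0.05 to 0.22 for FAS, 1.18 to 1.31 for TP53I3, 0.27 to 0.36 for BCL2L1 and -0.58 to -0.40 for MCL1. Without 1 library, 4 to 5 of the members were called, 3 to 4 higher and 1 lower, and 21 to 23 of the pathway list, 9 to 11 higher and 12 lower.

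With the fold raised to 2, 2 members were called, 2 higher and 0 lower, and 2 of the pathway list, 1 higher and 1 lower, while calls over all genes went from 1301 higher and 2775 lower to 104 and 359. Members called lower were 2 with no filter, where BCL2 entered, and 0 after median-ratio scaling. The death and survival balance changed by 1.08 with a pseudocount of 0.1, by 0.92 after quantile normalization, by 0.88 after median-ratio scaling and by 0.76 to 0.88 without 1 library. The replicate block gave 5 members called and 1222 higher and 2670 lower genes in all, and changed no member's call. The libraries share only a number, and no library correlated best with the library of its own number.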
